A study of Mus musculus with 10 samples.

Results

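Libraries of sorted beta cells held RNA of hormones that other islet cells make. The 7 genes described here are those hormones and regulators: Gcg, Sst, Ppy, Pyy, Ghrl, Irx2 and Hhex. They were listed by name as hormone and lineage factor genes of alpha, delta, PP and epsilon cells, by a rule that uses names and no measured values. The list was made with earlier results of these data known. They are 7 of the 56748 gene identifiers counted. Of these, 6 passed the filter on low counts, among 15942 genes tested, and Ghrl did not.

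Pancreatic islets hold beta cells, which secrete insulin, together with several rarer endocrine cell types. Alpha cells make proglucagon, the product of Gcg, which raises blood glucose after processing to glucagon. Delta cells make somatostatin, the product of Sst, a paracrine brake on both insulin and glucagon release. PP cells make pancreatic polypeptide from Ppy, and its relative peptide YY, from Pyy, is made by several islet cell types and restrains insulin secretion. Epsilon cells make ghrelin from Ghrl. Irx2 encodes a homeodomain protein of alpha cells, and Hhex encodes a homeodomain protein that mouse delta cells need to form.

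The LPS libraries (n = 5, numbered 6 to 10) were made from islets of NOD males at 6 to 8 weeks of age that had been held in culture for 48 hours with lipopolysaccharide at 50 ng/ml. The untreated libraries (n = 5, numbered 1 to 5) came from islets of the same strain, sex and age without lipopolysaccharide. NOD mice develop autoimmune diabetes spontaneously, and lipopolysaccharide (LPS) is a bacterial cell wall component. In both groups the islets were trypsinised and beta cells collected by fluorescence-activated sorting before RNA sequencing. The samples were treated as independent, and their titles give only a group and a number. Neither the animals that gave each library nor the sorting gate is named, and p-values measure the spread between these samples.

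Total counts assigned to genes ran from 18465188 to 27379892 per library. The defining beta cell genes Ins1 and Ins2, the 2 mouse insulin genes, were abundant and took 8.56 to 11.4% of counts in LPS libraries and 9.98 to 11.8% in untreated libraries. The 5 hormone genes of other islet cells together took 0.970 to 1.99% in LPS libraries and 1.21 to 2.43% in untreated libraries. Per 100 insulin counts this was 8.49 to 21.8 counts in LPS libraries and 10.3 to 24.3 counts in untreated libraries. LPS 10 and untreated 5 stood apart in the same way, with the lowest share of other hormones and the highest share of insulin genes in their group. These are sums over all cells of a library, so fewer cells of a type and less RNA per cell cannot be told apart. RNA from other islet cells in the sort and RNA made in beta cells cannot be told apart either.

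The promoters of the 4 abundant hormone genes are shown because these genes varied together across libraries, as described further on. Whether promoter sequence has a part in that covariation was not tested. Each line gives the 250 bases upstream of the annotated start, 5′ to 3′ on the strand of the gene, from RefSeq on build GRCm38.p6. Capitals mark matches, on either strand, to TGACGTCA (the cyclic AMP response element, CRE), or to TATAAA, the core of a TATA box. All 4 genes lie on the minus strand, and the regions are chr2:62483654-62483903 for Gcg, chr16:23890845-23891094 for Sst, chr11:102101320-102101569 for Ppy and chr11:102107833-102108082 for Pyy.
Gcg: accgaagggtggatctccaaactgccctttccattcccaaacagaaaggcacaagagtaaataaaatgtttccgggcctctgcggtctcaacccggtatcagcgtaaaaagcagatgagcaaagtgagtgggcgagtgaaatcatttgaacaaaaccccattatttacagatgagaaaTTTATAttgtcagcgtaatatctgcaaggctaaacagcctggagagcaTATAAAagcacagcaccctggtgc
Sst: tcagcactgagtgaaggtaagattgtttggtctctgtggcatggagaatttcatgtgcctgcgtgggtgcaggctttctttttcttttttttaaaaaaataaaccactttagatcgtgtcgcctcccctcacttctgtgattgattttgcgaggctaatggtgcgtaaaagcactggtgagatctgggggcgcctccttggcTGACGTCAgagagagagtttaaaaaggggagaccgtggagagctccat
Ppy: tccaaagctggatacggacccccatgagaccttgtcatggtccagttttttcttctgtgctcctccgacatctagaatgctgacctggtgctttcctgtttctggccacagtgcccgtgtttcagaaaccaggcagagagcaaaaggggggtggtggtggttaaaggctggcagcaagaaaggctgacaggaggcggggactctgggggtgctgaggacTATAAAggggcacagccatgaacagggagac
Pyy: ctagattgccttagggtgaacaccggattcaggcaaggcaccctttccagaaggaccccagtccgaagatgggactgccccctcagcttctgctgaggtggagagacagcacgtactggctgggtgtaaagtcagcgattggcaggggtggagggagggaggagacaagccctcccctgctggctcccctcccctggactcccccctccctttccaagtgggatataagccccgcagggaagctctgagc

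The Sst window holds 1 CRE match, which begins 48 bases upstream of the start. The Gcg window holds 2 TATAAA matches, beginning 72 and 24 bases upstream, and the Ppy window holds 1, beginning 31 bases upstream. The Pyy window holds neither string, and the table gives Pyy 2 start windows, of which the outermost is printed. Across all 32851 promoter windows of this length, 1.55% hold the CRE string and 12.4% hold TATAAA. The homeodomain core TAAT, present in 54.9% of windows, occurs 2 times for Gcg, 1 time for Sst and not in the other 2 windows. The E-box CANNTG, present in 66.2% of windows, occurs 3 times for Gcg, 1 time for Sst, 1 time for Pyy and not for Ppy. No match to one of these strings overlaps a match to another in the 4 windows. These matches are descriptions of letters and not evidence of bound factors. Ppy and Pyy are neighbours on chromosome 11, with 0 protein-coding genes between them in the GENCODE M21 annotation.

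Per kilobase of exon, Sst was the most abundant of the 7 genes. It averaged 9205 ± 2181 CPM (counts scaled to the library total after TMM scaling) per kilobase in LPS libraries and 9804 ± 1144 in untreated libraries (SD, n = 5 each). Gcg came next with 6028 ± 1685 CPM per kilobase in LPS libraries and 8209 ± 3119 in untreated libraries. Sst exceeded Gcg in 5 of 5 LPS libraries and in 4 of 5 untreated libraries, so that this step in the order does not exceed the spread among untreated libraries.

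Ppy averaged 1567 ± 570 CPM per kilobase in LPS libraries and 3116 ± 931 in untreated libraries, above Pyy with 1044 ± 285 and 1359 ± 139 CPM per kilobase in LPS and untreated libraries. The lineage factors were far lower, Hhex at 17.1 ± 3.58 CPM per kilobase in LPS libraries and 20.1 ± 1.59 in untreated libraries, and Irx2 at 4.12 ± 1.02 and 4.89 ± 1.14 in LPS and untreated libraries. Ghrl was lowest, at 0.274 ± 0.217 CPM per kilobase in LPS libraries and 0.303 ± 0.122 in untreated libraries. From Gcg down to Ghrl, each gene exceeded the next in all 5 libraries of both groups. For scale, Ins2 averaged 46937 ± 6380 CPM per kilobase in LPS libraries and 53640 ± 4700 in untreated libraries.

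The comparison of LPS with untreated libraries asked whether LPS in the islet culture altered the levels of these genes. All CPM values are after scaling by TMM, a normalisation that sets aside the most extreme genes. Ppy was lower by about 2-fold in LPS libraries and was the only member past the threshold, while Gcg, Sst, Pyy, Irx2 and Hhex had lower means in LPS libraries without passing it. The test was edgeR's quasi-likelihood test with p-values adjusted by Benjamini-Hochberg over all 15942 genes, and calls were made under an adjusted p of 0.05. Against 1 of 6 tested members called, 3.77% of all tested genes were called, 2.84% as higher in LPS and 0.928% as lower.

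**Figure D1:**
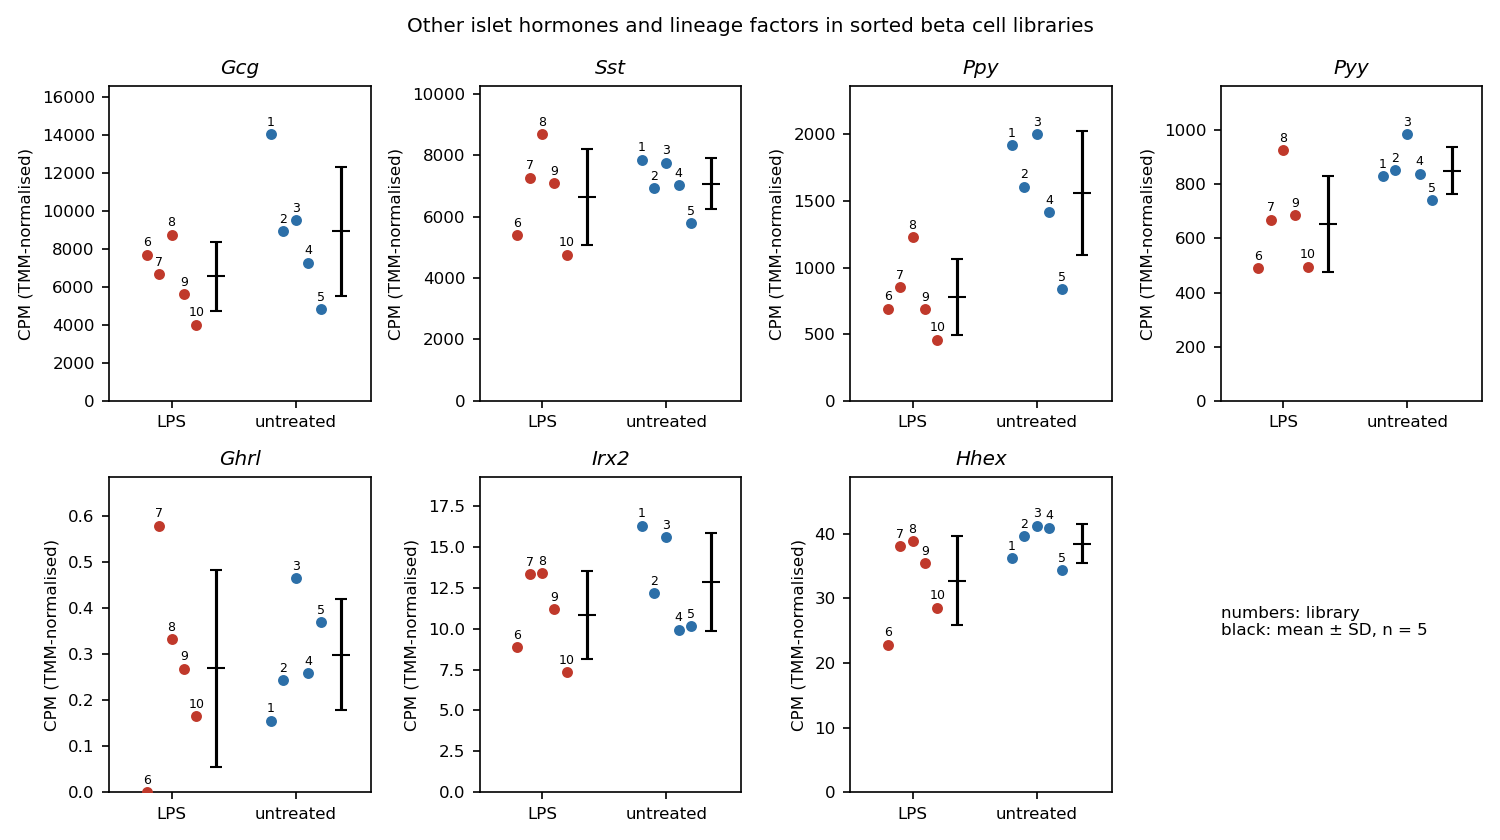
CPM of each gene (vertical axis, TMM-normalised, from 0) in each of the 5 LPS libraries (red, left) and 5 untreated libraries (blue, right), with library numbers beside the points and the mean ± SD in black. Ppy lies at 459 to 1228 CPM in LPS libraries and at 840 to 2003 CPM in untreated libraries, and the groups overlap for every gene.

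Ppy had 691, 853, 1228, 687 and 459 CPM in LPS 6 to LPS 10, against 1921, 1607, 2003, 1418 and 840 CPM in untreated 1 to untreated 5. All LPS libraries but LPS 7 and LPS 8 lay below every untreated library, and untreated 5 was the low untreated library. The means were 783 ± 285 CPM in LPS libraries and 1558 ± 465 CPM in untreated libraries (SD, n = 5 each). This was a 1.99-fold lower level in LPS, a log2 fold change of -0.99 with an SE of 0.25 (adjusted p = 0.0473 in edgeR).

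The Ppy call sat close to its threshold. It was lost in 8 of the 10 fits that leave out 1 library and kept without LPS 8 or without untreated 5, with log2 fold changes from -1.22 to -0.85 and edgeR adjusted p from 0.0106 to 0.132. The libraries whose absence ended the call were LPS 6, 7, 9 and 10 and untreated 1, 2, 3 and 4. Scaled to the insulin counts in place of TMM, Ppy was not called (log2 fold change -0.81, edgeR adjusted p = 0.132). That scaling moves the median log2 fold change of all tested genes to 0.16, from -0.01 under TMM, and raises the share of called genes that are higher in LPS to 97.7%, from 75.4%.

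Pyy had 490, 668, 925, 685 and 495 CPM in LPS 6 to LPS 10, against 830, 850, 985, 839 and 742 CPM in untreated 1 to untreated 5. In Pyy 4 of 5 LPS libraries lay below every untreated library, and LPS 8 lay within the untreated range. Its log2 fold change was -0.38 with an SE of 0.15 and a 95% interval of -0.71 to -0.05, and Pyy was not called (adjusted p = 0.239 in edgeR). Its unadjusted p was 0.0265, and 15.3% of all tested genes had an unadjusted p under 0.05. Without LPS 8 the log2 fold change was -0.55 and Pyy was called (edgeR adjusted p = 0.0231).

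Gcg had 7698, 6681, 8759, 5631 and 4022 CPM in LPS 6 to LPS 10, against 14063, 8941, 9513, 7293 and 4845 CPM in untreated 1 to untreated 5. The groups overlapped widely, untreated 1 was the highest library and LPS 10 and untreated 5 were the lowest. Gcg had a log2 fold change of -0.45 with an SE of 0.25 and a 95% interval of -0.99 to 0.10 (adjusted p = 0.445 in edgeR).

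Sst had 5391, 7262, 8684, 7094 and 4754 CPM in LPS 6 to LPS 10, against 7851, 6931, 7749, 7017 and 5795 CPM in untreated 1 to untreated 5. LPS 8 was the highest of all libraries and LPS 10 the lowest, with the untreated libraries between them. Sst had a log2 fold change of -0.09 with an SE of 0.15 and a 95% interval of -0.41 to 0.23 (adjusted p = 0.842 in edgeR), and the sign turned with insulin scaling and without LPS 10.

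Irx2 had 8.88, 13.3, 13.4, 11.2 and 7.33 CPM in LPS 6 to LPS 10, against 16.3, 12.2, 15.6, 9.94 and 10.1 CPM in untreated 1 to untreated 5. The groups overlapped, with LPS 10 lowest and untreated 1 highest. On the log2 scale the difference was -0.24 with an SE of 0.19 and a 95% interval of -0.65 to 0.16 (adjusted p = 0.610 in edgeR).

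Hhex had 22.8, 38.1, 38.8, 35.4 and 28.6 CPM in LPS 6 to LPS 10, against 36.2, 39.6, 41.3, 40.9 and 34.4 CPM in untreated 1 to untreated 5. LPS 6 and LPS 10 lay below all untreated libraries and the other 3 LPS libraries lay within their range. Hhex differed by -0.23 on the log2 scale with an SE of 0.13 and a 95% interval of -0.51 to 0.04 (adjusted p = 0.432 in edgeR).

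Ghrl had 0, 16, 7, 5 and 4 counts in LPS 6 to LPS 10, against 4, 6, 11, 6 and 9 counts in untreated 1 to untreated 5. This made 32 counts in all LPS libraries and 36 in all untreated libraries, and in LPS 6 a count of 0 allows up to 3 counts, or 0.146 CPM. Mboat4, the acyltransferase that activates ghrelin, was as scarce, with 24 counts in LPS libraries and 22 in untreated libraries. Ghrl overlaps 2 annotated genes on the opposite strand, Gm26982 and Gm44033, and the use of strand in counting is not given in the sources used here, so its few reads cannot be told apart from theirs. A difference in Ghrl was not detectable at this depth.

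In none of the 6 tested members did the groups separate completely (0 of 6), whereas 5.71% of all tested genes had no overlap between the groups.

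**Figure D2:**
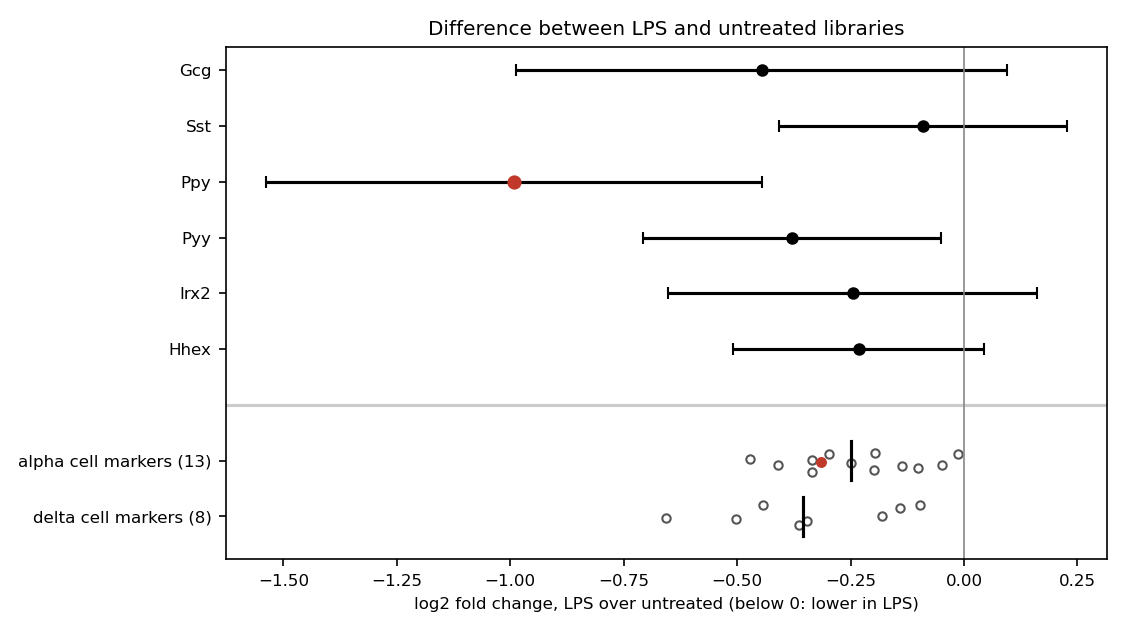
Log2 fold change of LPS over untreated (horizontal axis) for the 6 tested genes with 95% intervals (top) and for the tested alpha and delta cell markers (bottom, 1 point per gene, vertical bars at the medians), red where called. Ppy at -0.99 and the alpha list gene Dpp4 at -0.31 are red, and all 21 marker points lie below 0 under TMM scaling.

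The hormone genes varied more between libraries of the same group than most genes did. The within-group SD on the log2 scale was 0.51 for Ppy and 0.50 for Gcg, against a median of 0.14 over the 9464 genes with at least 10 CPM. A spread as large as that of Ppy was found in 0.983% of those genes, and one as large as that of Gcg in 1.06%. Irx2 followed with an SD of 0.35, Pyy with 0.29, Sst with 0.28 and Hhex with 0.24, spreads that 3.46%, 6.64%, 7.55% and 11.5% of those genes reached. The highest Gcg library exceeded the lowest by 2.18-fold among LPS libraries and by 2.90-fold among untreated libraries.

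The members were high in the same libraries and low in the same libraries. All 15 pairs of the 6 tested genes had positive correlations of log2 CPM across the 10 libraries, with Pearson's r from 0.34 (Gcg with Hhex) to 0.89 (Pyy with Hhex) and a median of 0.78. Of the 21 pairs with Ghrl included, 13 had a permutation p under 0.05 after Benjamini-Hochberg adjustment over the 21 pairs, and 12 of these were among the 15. By Spearman's rho 5 of the 21 pairs passed. The libraries share the same sort and the same scaling, and the members were listed with earlier results of these data known.

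The pair with the highest correlation was Pyy with Hhex, at r = 0.89 (permutation p = 0.000870, adjusted p = 0.00609) and rho = 0.87 (permutation p = 0.00226, adjusted p = 0.0158). Sst with Irx2 followed at r = 0.89 (permutation p = 0.000530, adjusted p = 0.00588) and rho = 0.90 (permutation p = 0.000900, adjusted p = 0.0158). Ppy with its chromosomal neighbour Pyy had r = 0.88 (permutation p = 0.000560, adjusted p = 0.00588) and rho = 0.81 (permutation p = 0.00718, adjusted p = 0.0312). Gcg with Ppy had r = 0.85 (permutation p = 0.00153, adjusted p = 0.00803) and rho = 0.87 (permutation p = 0.00214, adjusted p = 0.0158). Gcg with Hhex was the lowest of the 15, at r = 0.34 (permutation p = 0.329, adjusted p = 0.364) and rho = 0.55 (permutation p = 0.105, adjusted p = 0.147). Partners by lineage were not the highest, with r = 0.79 for Gcg with the alpha cell factor Irx2 and r = 0.77 for Sst with the delta cell factor Hhex, and differences between these r were not tested.

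The number of pairs that passed depended on few libraries. Without the 2 libraries farthest from the median of the first gene of each pair, all 15 r stayed positive, from 0.20 to 0.76. Of the 21 pairs 0 then passed after adjustment and 4 passed unadjusted (exact permutation test over 8 libraries). Leaving out the farthest libraries narrows the range of the first gene and leaves 8 libraries. The lost calls therefore cannot show that a correlation came from those libraries. LPS 10 was 1 of the libraries left out in each of the 15 pairs. Without LPS 10 alone 2 of 21 pairs passed, which were Ppy with Pyy and Pyy with Hhex. Ghrl passed with Hhex (r = 0.83, permutation p = 0.00912, adjusted p = 0.0213; rho = 0.47, permutation p = 0.180), on 0 counts in LPS 6 and 16 counts in LPS 7, and r was 0.53 without these libraries.

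The covariation was also present within the groups. Computed on deviations from each group's mean, with libraries permuted within their group, 11 of 21 pairs passed and the median r of the 15 pairs was 0.78. Sst with Pyy then had the highest r at 0.93 (permutation p = 0.00334, adjusted p = 0.0140), followed by Sst with Ppy at 0.89 (permutation p = 0.000480, adjusted p = 0.0101) and Gcg with Ppy at 0.89 (permutation p = 0.00190, adjusted p = 0.0113). The permutations treated the 10 libraries as independent, and whether libraries of both groups shared animals or a batch was not tested.

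**Figure D3:**
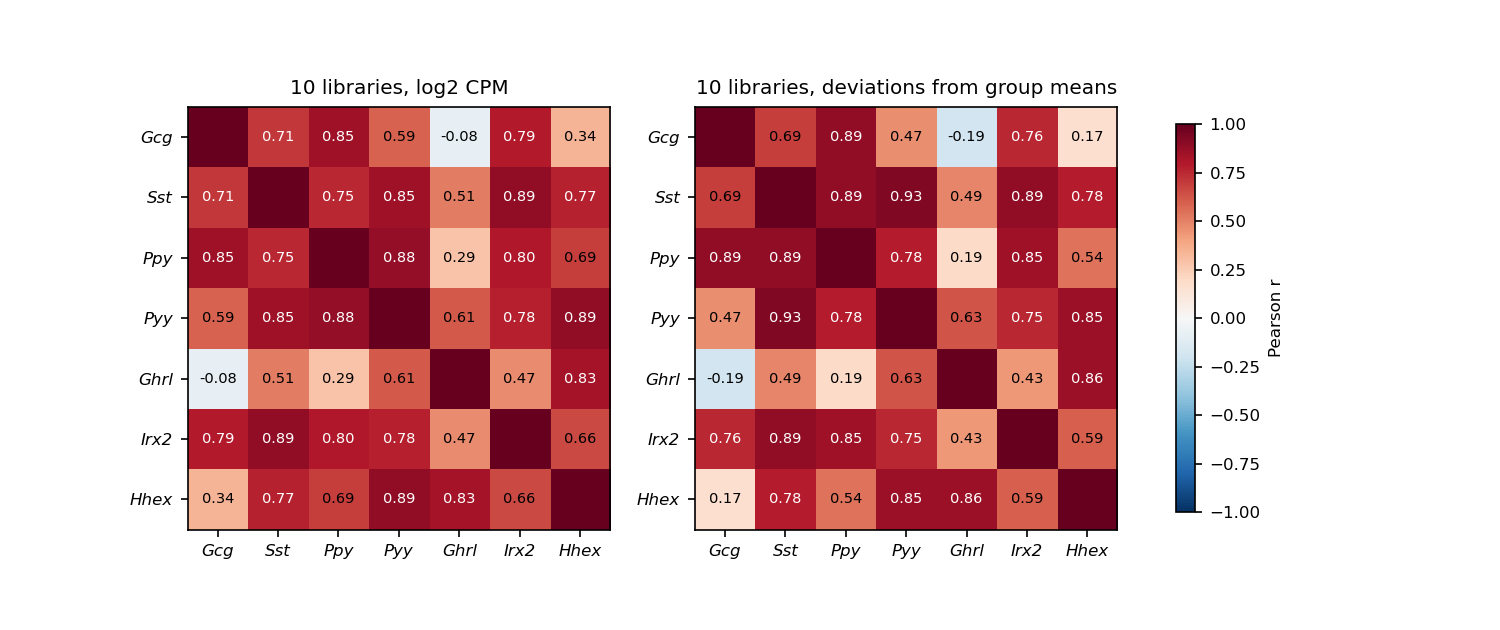
Pearson's r between the 7 genes over 10 libraries, from log2 CPM (left) and from deviations from the group means (right); the colour scale runs from -1 (blue) to 1 (red). The pairs of Gcg, Sst, Ppy, Pyy and Irx2 are red in both panels, while Gcg with Hhex stands at 0.34 on the left and 0.17 on the right.

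The deviations show where the members part. In LPS 6 Gcg lay 0.28 above its group mean on the log2 scale, while the deviations were -0.27 for Sst, -0.37 for Pyy and -0.49 for Hhex. In LPS 8 all 6 genes lay above their group means, by 0.27 for Hhex up to 0.72 for Ppy. In LPS 10 and in untreated 5 all 6 lay below them, with deviations for Gcg of -0.66 in LPS 10 and -0.80 in untreated 5, and for Ppy of -0.70 in LPS 10 and -0.83 in untreated 5. Untreated 1 was uneven, with deviations of 0.74 for Gcg, 0.37 for Ppy and Irx2, 0.16 for Sst and -0.03 for Pyy.

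Genes most like each hormone were ranked by Pearson's r of the same deviations over the 10 libraries, among 12002 genes with at least 1 CPM on average. For Gcg the nearest were Cltrn at r = 0.98, Arntl at 0.97, Gc at 0.96, Slc38a5 at 0.96 and Slc5a6 at 0.96. Cltrn (also known as Tmem27), Gc and the amino acid transporter gene Slc38a5 stand in the alpha cell marker list, and Gc encodes the vitamin D-binding protein. For Sst they were Rbp4 at 0.98, Mest at 0.98, Nefm at 0.97, Lrrk2 at 0.97 and Tmem132a at 0.97. Rbp4, the gene of a retinol carrier, stands in the delta cell marker list.

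For Ppy the nearest genes were Man2a1 at 0.97, Sorcs2 at 0.97, Klb at 0.95, Colgalt2 at 0.95 and St8sia3 at 0.95, none of them in a listed group. For Pyy they were Nexmif at 0.99, Dennd2a at 0.97, Lrrk2 at 0.97, Kifc3 at 0.96 and the glutamate receptor subunit gene Gria2 at 0.96, also in no list. For Irx2 they were Dip2a at 0.97, Sgce at 0.95, Mboat7 at 0.94, Ttf2 at 0.94 and Lrig1 at 0.93. For Hhex they were Slc16a13 at 0.97, Notch1 at 0.94, Wdr6 at 0.93 and Fem1a at 0.93. Among all 15941 other tested genes, Pyy ranked 22nd by likeness to Sst, and Ppy ranked 108th by likeness to Gcg.

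**Figure D4:**
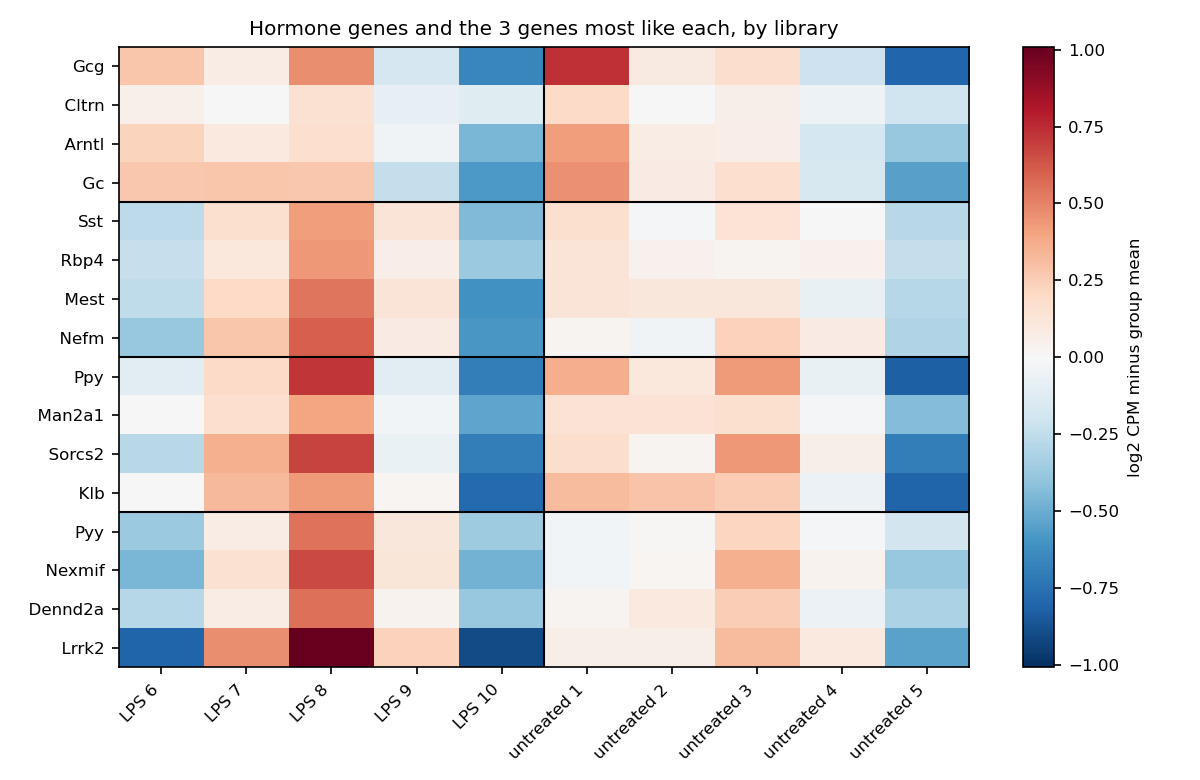
Deviation of log2 CPM from the group mean (colour, red above and blue below) for Gcg, Sst, Ppy and Pyy and the 3 genes most like each (rows), by library (columns, LPS left of the line and untreated right of it). All rows are blue in LPS 10 and untreated 5, LPS 6 is red for the Gcg block and blue for the Sst and Pyy blocks, and Gcg in untreated 1 stands at 0.74.

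Alpha and delta cell markers varied with Gcg, Sst and Ppy, to differing degrees. The 13 alpha cell markers had a median r with Gcg of 0.82, 7 of them at 0.8 or above, against a median of -0.03 over all tested genes, and a median of 0.28 with Hhex. Markers of delta cells had a median r with Sst of 0.70 over the 8 that passed the filter, against -0.01 over all tested genes. The same delta markers had a median r of 0.68 with Gcg and the same alpha markers 0.66 with Sst, so that each list also varied with the other hormone. Of the alpha markers 3 reached 0.8 with Sst, and of the delta markers 3 did with Sst and 1 with Gcg. These differences were not tested. Hhex had a median r of 0.54 with the delta markers. Its median r was 0.69 with the 7 tested mesenchymal markers and 0.47 with the 6 tested endothelial markers. With Ppy the median r was 0.84 for the alpha markers and 0.78 for the delta markers, slightly above the values with Gcg and Sst, and these differences were not tested. The 5 tested PP and epsilon cell markers had a median r with Ppy of 0.25, from -0.30 for Id4 to 0.89 for Meis2. Acinar markers had a median r of 0.62 with Gcg over 10 genes, and their part in these correlations was not tested. Among genes chosen after their values were seen, Irx1, the relative of Irx2, had r = 0.93 with Irx2, and the insulin genes ran the other way from Gcg, at -0.80 for Ins1 and -0.72 for Ins2. Iapp of the beta cell list had r = 0.02 with Gcg, and the 12 beta cell markers had a median of -0.28 with Gcg. Ins1 had r = -0.10 with Pyy and 0.15 with Hhex, Ins2 had -0.56 with Pyy and -0.42 with Hhex, and Iapp had -0.83 and -0.80. The beta cell markers had a median r of 0.08 with Pyy and 0.20 with Hhex. With Sst and Ppy, r was -0.73 and -0.81 for Ins2, -0.36 and -0.59 for Ins1, and -0.65 and -0.39 for Iapp.

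The mean ratio of Ppy to each of the other 5 tested members was lower in LPS libraries, without passing the test after adjustment. These ratios of counts do not depend on scaling, and they were chosen after the values of the members were seen. The ratio of Ppy counts to Pyy counts was 1.41, 1.28, 1.33, 1.00 and 0.926 in LPS 6 to LPS 10, against 2.31, 1.89, 2.03, 1.69 and 1.13 in untreated 1 to untreated 5. Untreated 5 was the only untreated library within the LPS range. The difference of the mean log2 ratio was -0.59 (two-sided exact permutation p = 0.0317, adjusted p = 0.0794 over 15 pairs of genes).

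Relative to Sst, the ratio of Ppy counts was 0.0965 to 0.141 in LPS libraries and 0.145 to 0.258 in untreated libraries, with no overlap. The difference of the mean log2 ratio was -0.89 (two-sided exact permutation p = 0.00794, the smallest this design allows, adjusted p = 0.0595). Relative to Gcg it was -0.59 (exact permutation p = 0.0159, adjusted p = 0.0595), relative to Irx2 -0.75 (exact permutation p = 0.0159, adjusted p = 0.0595) and relative to Hhex -0.75 (exact permutation p = 0.0317, adjusted p = 0.0794). Sst relative to Pyy differed by 0.30 (exact permutation p = 0.0159, adjusted p = 0.0595). Of the 15 pairs 0 passed after adjustment and 6 passed unadjusted. Without untreated 5 all 6 of these ratios passed (exact permutation, adjusted p = 0.0397 each), and without untreated 1 those of Ppy to Gcg, Ppy to Sst and Sst to Pyy did. Leaving out any other single library, the ratios did not pass. The highest adjusted p of a ratio without 1 library ran from 0.0893 for Ppy to Sst to 0.159 for Ppy to Pyy (exact permutation).

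**Figure D5:**
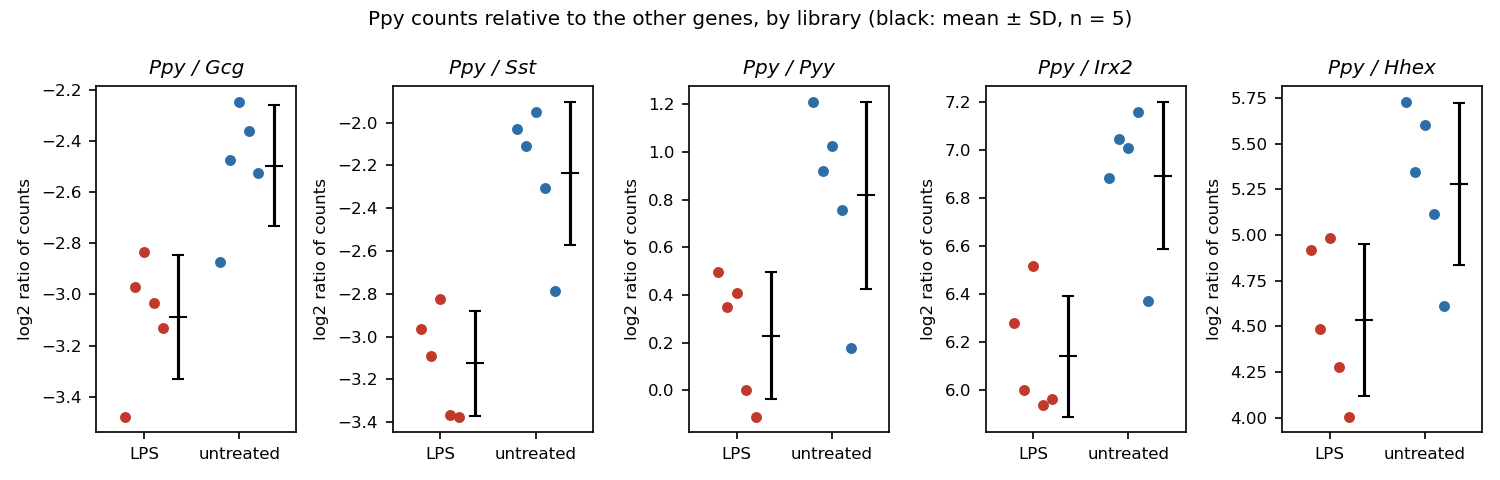
Log2 ratio of Ppy counts to those of Gcg, Sst, Pyy, Irx2 and Hhex (vertical axes, which do not start at 0) in LPS libraries (red, left) and untreated libraries (blue, right), with mean ± SD in black. The groups do not overlap for Ppy to Sst, where the difference of the means is -0.89, and overlap for the other 4 ratios.

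Alpha and delta cell markers had lower means in LPS libraries under TMM scaling, and all but 1 of them did not pass the test, while PP and epsilon cell markers were mixed. All 13 alpha cell markers tested had log2 fold changes below 0, with a median of -0.25 against -0.01 over all tested genes, of which 52.1% were below 0. Of the 13 genes 1 was called as lower and 0 as higher. Their summed level was 580 to 786 CPM in LPS libraries and 660 to 939 CPM in untreated libraries. With insulin scaling 9 of the 13 were below 0, and 0 were called.

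The called alpha list gene was Dpp4, a peptidase that cleaves the incretin GLP-1 and peptide YY. Dpp4 averaged 109 ± 2.99 CPM in LPS libraries and 136 ± 6.53 CPM in untreated libraries, a log2 fold change of -0.31 with an SE of 0.05 (adjusted p = 0.00404 in edgeR). It was called in all 10 fits that leave out 1 library, but not with insulin scaling (log2 fold change -0.14, edgeR adjusted p = 0.477). Its r with Gcg on deviations, 0.52, was below the median of the alpha markers, and this difference was not tested.

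All 8 delta cell markers tested, of 12 listed, also had log2 fold changes below 0, with a median of -0.35, and 0 were called (3 at an unadjusted p under 0.05 in edgeR). Rbp4 averaged 254 ± 56.3 CPM in LPS libraries and 288 ± 26.4 CPM in untreated libraries, and Cd24a 106 ± 10.3 and 117 ± 11.5 CPM in LPS and untreated libraries. Their summed level was 359 to 598 CPM in LPS libraries and 467 to 609 CPM in untreated libraries, and Nrg3 of this list was at 0 counts throughout. With insulin scaling 5 of the 8 were below 0.

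Of 8 listed PP and epsilon cell markers 5 were tested, 1 rose and 0 fell, with a median log2 fold change of -0.06 that became 0.12 under insulin scaling. The gene that rose was Spp1, which encodes osteopontin and is also in the ductal list. Spp1 averaged 91.1 ± 21.5 CPM in LPS libraries and 46.4 ± 10.5 CPM in untreated libraries (adjusted p = 0.00404 in edgeR; log2 fold change 0.97, SE 0.17), opposite in direction to Ppy. The list summed to 339 to 455 CPM in LPS libraries and 301 to 374 CPM in untreated libraries.

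Receptors for these hormones were partly expressed in the same libraries. Of 12 listed receptors 6 were tested, 1 fell and 0 rose. The one that fell was Glp1r, the receptor of the Gcg product GLP-1 and a beta cell gene, at 917 ± 30.9 CPM in LPS libraries and 1221 ± 80.7 CPM in untreated libraries (adjusted p = 0.00179 in edgeR; log2 fold change -0.41, SE 0.06). With insulin scaling Glp1r was not called (log2 fold change -0.24, edgeR adjusted p = 0.245). The glucagon receptor gene Gcgr averaged 44.7 ± 12.9 CPM in LPS libraries and 58.9 ± 23.9 CPM in untreated libraries (edgeR adjusted p = 0.470). Sstr3, a somatostatin receptor gene, averaged 154 ± 8.77 CPM in LPS libraries and 164 ± 5.16 CPM in untreated libraries (edgeR adjusted p = 0.518). The receptors of pancreatic polypeptide and peptide YY, Npy1r, Npy2r, Npy4r and Npy5r, had at most 3 counts summed over either group. Gcgr and Sstr3 were chosen after their values were seen.

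Of 11 listed genes for processing prohormones 9 were tested, with Dpp4 called as lower and 0 called as higher. Pcsk2, the convertase that cuts proglucagon to glucagon, averaged 3009 ± 118 CPM in LPS libraries and 3389 ± 182 CPM in untreated libraries (adjusted p = 0.201 in edgeR; log2 fold change -0.17, SE 0.06). The carboxypeptidase gene Cpe averaged 2452 ± 258 CPM in LPS libraries and 2043 ± 114 CPM in untreated libraries (adjusted p = 0.0989 in edgeR; log2 fold change 0.26, SE 0.08). Neither was called in edgeR, while DESeq2 called both (adjusted p = 0.0367 for Pcsk2 and 0.0252 for Cpe), and both were chosen after their values were seen. The median log2 fold change of the list was 0.10.

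Of 22 listed endocrine lineage factors 21 were tested, and 1 fell while 0 rose, with a median log2 fold change of -0.13 that became 0.05 under insulin scaling. The gene that fell was Myt1, a zinc finger factor of endocrine differentiation, at 123 ± 7.35 CPM in LPS libraries and 145 ± 2.97 CPM in untreated libraries (adjusted p = 0.0331 in edgeR; log2 fold change -0.24, SE 0.06). The Myt1 call was kept in 1 of the 10 fits that leave out 1 library, the one without LPS 8 (edgeR adjusted p from 0.0234 to 0.0879), and was lost with insulin scaling (edgeR adjusted p = 0.780) and without the filter on low counts (edgeR adjusted p = 0.100). Pax4, a factor of beta cell development, was at 0 counts in all 10 libraries. Pax4 was chosen after its values were seen.

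Of 12 beta cell markers, all tested, 4 fell and 0 rose: Slc2a2 (log2 fold change -0.86), Slc30a8 (-0.59), Ucn3 (-0.64) and Glp1r. Their summed level was 103044 to 135115 CPM in LPS libraries and 119669 to 138498 CPM in untreated libraries.

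Markers of other cells in or near islets were measured in the same libraries, and their part in the results on the hormones was not tested. Summed acinar markers, 10 of 10 tested with 0 called, were at 160 to 666 CPM in LPS libraries and 263 to 507 CPM in untreated libraries. Of the ductal markers 9 of 10 were tested with 2 higher and 0 lower, summing to 914 to 1089 CPM in LPS libraries and 760 to 961 CPM in untreated libraries, most of it from the keratin genes Krt7 and Krt18. The ductal genes that rose were Spp1 and the mucin gene Muc1, which averaged 12.2 ± 0.977 CPM in LPS libraries and 6.99 ± 1.58 CPM in untreated libraries (adjusted p = 0.00564 in edgeR; log2 fold change 0.80, SE 0.14). Endothelial markers summed to 2.39 to 6.66 CPM in LPS libraries and 2.84 to 28.7 CPM in untreated libraries, with 6 of 10 tested and 1, Kdr, called as lower. Kdr kept its call in 1 of the 10 fits that leave out 1 library, the one without untreated 1 (edgeR adjusted p from 0.00258 to 0.126), and limma-voom did not call it (adjusted p = 0.411). Mesenchymal markers summed to 4.78 to 33.8 CPM in LPS libraries and 7.89 to 114 CPM in untreated libraries, with 7 of 10 tested and 0 called.

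Macrophage markers summed to 36.4 to 46.7 CPM in LPS libraries and 29.2 to 42.1 CPM in untreated libraries, with 2 of 10 tested and Cd68 called as higher, except without untreated 3 (edgeR adjusted p = 0.0512). Most of the sum came from Cd68 (means of 26.8 CPM in LPS and 16.8 CPM in untreated libraries) and C1qa. C1qa, named after its values were seen, averaged 14.7 CPM in LPS libraries and 18.7 CPM in untreated libraries. It lay in the other direction and was not called (log2 fold change -0.35, edgeR adjusted p = 0.213). The untested markers averaged at most 0.390 CPM in either group. Lymphocyte markers summed to 1.24 to 2.78 CPM in LPS libraries and 2.25 to 3.61 CPM in untreated libraries, with 1 of 10 tested, 0 called and 5 at 0 counts in all libraries. The most abundant of them, the B cell receptor gene Cd79a, averaged 1.93 ± 0.663 CPM in LPS libraries and 2.67 ± 0.587 CPM in untreated libraries (edgeR adjusted p = 0.423), and its partner Cd79b had 10 counts in LPS libraries and 2 in untreated libraries. Ptprc, the gene of the pan-leukocyte antigen CD45, was at 0 counts in all libraries.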

How the data were processed

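RNA-seq of sorted beta cells gave 10 libraries, 5 LPS and 5 untreated, grouped by their titles. The authors deposited whole-number counts per Ensembl gene. Per the submitters' processing notes, the build was GRCm39 and the tools were FastQC, Trimmomatic, STAR, SAMtools, HTSeq and DESeq2. Their versions, the annotation and the handling of strand are not given in the sources read. Rows that name no gene (15.4 to 20.2% of reads) were left out. Library pairs within a group differed by more than sampling noise (chi-square per gene at least 6.14), so each counted as 1 replicate. Depth and floors cover counting error only.

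Counts were filtered (edgeR 4.0.16 filterByExpr, minimum count 10, minimum total 15), scaled with TMM factors and put through the quasi-likelihood test without covariates in R 4.3.3, after a test on simulated data. Adjusted p-values are Benjamini-Hochberg over 15942 genes. Log2 CPM for correlations used a prior count of 2 and 100000 permutations. Ratios were tested over all 252 arrangements. Symbols and exon lengths came from GENCODE M21 and RefSeq names, promoters from RefSeq on GRCm38.p6, another build than that of the counts. Of 56748 identifiers 52073 matched a symbol. DESeq2 1.42.0 (on the filtered genes) and limma 3.58.1 were alternatives. SciPy 1.17.1 and matplotlib 3.10.9 were used.

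The 7 genes, the gene lists and the tests were chosen with earlier results of these data known. The 15 lists were other islet hormones and their lineage factors (the 7 genes), alpha, delta, PP and epsilon, beta, endothelial, macrophage, lymphocyte, acinar, ductal and mesenchymal markers, hormone receptors, prohormone processing and endocrine lineage factors. From each list up to 3 called genes with the smallest p were named or, if none was called, the 2 most abundant, and for each tested member the 5 genes most like it. One of the genes most like Hhex is not reported here. Lists share genes, such as Dpp4, Glp1r, Spp1 and Ghsr. For endothelial, macrophage, acinar and mesenchymal cells the summed levels stand in for named genes, apart from Kdr, Cd68 and C1qa.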

Additional observations from a re-analysis of the deposited data

How the results depend on the processing

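The number of genes called was 601, and it was 976 with the DESeq2 Wald test and 994 with limma-voom and sample quality weights; leaving out 1 library gave 401 to 624. The number of members called was 1 (Ppy), 0 with counts scaled to Ins1 and Ins2, 1 under 8 other settings (DESeq2 size factors, upper-quartile factors, no filter, 1 CPM in 5 libraries, DESeq2, limma-voom with and without weights, and library sizes without insulin genes and members) and 0 to 2 without 1 library. List genes called numbered 10, or 7 to 16 without 1 library. Correlated member pairs numbered 13, or 2 to 14 without 1 library and 11 to 15 under the 4 other settings. The log2 fold change of Sst, -0.09, was 0.091 with insulin scaling and -0.21 to 0.0083 without 1 library (above 0 without LPS 10). The correlation of Gcg with Ghrl, -0.08, was -0.22 to 0.053 without 1 library (above 0 without untreated 1). With insulin scaling the log2 fold changes of Rbp4, Cd24a, Sstr3 and Pcsk2 were 0.0021, 0.039, 0.091 and 0.0057, each below 0 under TMM. The causes were not tested. No paired analysis was run because the titles give no pairing and the groups share no replicate numbers. The ratio of Gcg to Pyy counts, picked after its values were seen, fell in numbered order in both groups. It was 15.7, 10.0, 9.47, 8.22 and 8.12 in LPS 6 to LPS 10, against 16.9, 10.5, 9.66, 8.69 and 6.53 in untreated 1 to untreated 5. The ratio of Gcg to Hhex counts, picked in the same way, had the same rank order in both groups. It was 337, 175, 226, 159 and 141 in LPS 6 to LPS 10, against 388, 226, 230, 178 and 141 in untreated 1 to untreated 5. The ratio of Sst to Irx2 counts did not fall in numbered order. Whether libraries of both groups shared animals or a batch was not tested. The alternatives for the ratios were added after seeing the data. Depth limits Ghrl, and the spread between 5 libraries limits the other members.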
